A study of Mus musculus with 6 samples.

Results

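The Ly49 receptors described here are the products of 6 genes, Klra1, Klra3, Klra5, Klra6, Klra7 and Klra9. They were chosen by gene symbol, as the rows of the deposited expression table that carry these names, and they are 6 of its 17985 genes. RNA-seq was carried out on iNKT1 cells of the thymus, which are invariant natural killer T cells that express T-bet and make interferon-gamma, from untreated mice on a C57BL/6 background. The 3 control libraries (Ctrl) came from mice of genotype Tbx21CreTg;Rosa26-LSL-YFP+/+, and the 3 conditional knockout libraries (cKO) from mice that carried Tgfbr2F/F as well. Both groups therefore carried the Cre transgene and the Cre-activated yellow fluorescent protein reporter at Rosa26, and differed by the floxed alleles of Tgfbr2, a receptor subunit for TGF-beta. Because Cre was driven by Tbx21, recombination could take place only in cells that had expressed that promoter. Neither the age of the mice nor whether animals were pooled was given, and the design text calls the 3 libraries of a group independent replicates without saying whether each is a separate mouse.

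Ly49 receptors are type II transmembrane lectin-like proteins best known from mouse natural killer (NK) cells, where most of them bind MHC class I molecules. The inhibitory members carry a cytoplasmic tyrosine motif that recruits the phosphatase SHP-1, whereas the activating members have no such motif and signal through the adaptor DAP12. The genes lie side by side in the NK gene complex, are close copies of one another, and are switched on in only a fraction of cells, so that each cell shows its own combination of receptors. All 6 genes described here encode receptors of the inhibitory kind in C57BL/6 mice: Klra1 encodes Ly49A, Klra3 Ly49C, Klra5 Ly49E, Klra6 Ly49F, Klra7 Ly49G and Klra9 Ly49I. Ly49E is the member known from fetal and neonatal lymphocytes.

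All 6 lay on the minus strand of chromosome 6 at the positions of the deposited table, which match mouse build mm10. In chromosome order, Klra5 (ENSMUSG00000030173) occupied bases 129898996 to 129917650, Klra6 130013033 to 130026954 and Klra9 130178753 to 130193112. Klra7 occupied bases 130218605 to 130233322, Klra3 130323289 to 130337574 and Klra1 130363918 to 130386874. These are whole-gene spans, and each value below is a sum over a gene's exons.

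How close the copies can be is shown by 1 stretch of coding sequence as long as a sequencing read, 75 bases, printed for each member 5′ to 3′ from GRCm38. It was chosen as a Klra9 stretch with the fewest mismatches to Klra3, so it shows that pair at its closest within coding sequence. In the whole transcripts, 32 stretches of that length were identical between Klra3 and Klra9. Each stretch runs across an exon junction, and capitals mark the bases that differ from Klra9.
Klra9: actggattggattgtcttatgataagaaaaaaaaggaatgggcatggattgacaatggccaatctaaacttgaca
Klra3: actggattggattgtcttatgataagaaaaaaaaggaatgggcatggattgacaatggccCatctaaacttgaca
Klra5: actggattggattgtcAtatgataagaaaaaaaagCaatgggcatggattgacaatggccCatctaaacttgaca
Klra6: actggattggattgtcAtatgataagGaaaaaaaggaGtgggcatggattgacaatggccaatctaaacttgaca
Klra7: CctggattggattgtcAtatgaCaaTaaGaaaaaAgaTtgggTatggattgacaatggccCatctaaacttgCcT
Klra1: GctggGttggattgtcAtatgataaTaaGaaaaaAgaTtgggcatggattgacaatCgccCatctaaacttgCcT
Klra3 differed from Klra9 at 1 base of this stretch, Klra5 and Klra6 at 3 each, and Klra7 and Klra1 at 11 each. A read from this stretch of Klra3 is thus separated from Klra9 by 1 base, whereas a read from Klra7 or Klra1 is not close to it. Over the whole coding sequence Klra3 and Klra9 were 95.9% identical, Klra5 and Klra6 91.9%, and Klra1 and Klra7 88.0%.

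The same comparison was made for every 75-base stretch of the GENCODE M21 transcripts. Of 1348 such stretches in Klra5 and 1042 in Klra6, 0 occurred unchanged in another Klra gene. Klra1 shared 4 of 1686 stretches (0.237%), all with Klra4. Klra7 shared 72 of 1260 (5.71%) with the pseudogene Klra13-ps, Klra3 shared 79 of 1236 (6.39%) and Klra9 shared 155 of 1277 (12.1%). With up to 2 mismatches allowed, the share with a near copy was 2.37% in Klra5, 7.87% in Klra6, 8.66% in Klra1, 37.5% in Klra7, 66.1% in Klra3 and 76.6% in Klra9. Near-identical copies can therefore have exchanged or lost reads in the authors' counting, so the separate values of Klra3, Klra7 and Klra9 are uncertain. In these transcripts Klra5, Klra6 and Klra1 consist almost wholly of stretches of their own. The exon length listed with the deposited counts is longer than the GENCODE length for Klra5 (3789 against 1398 bases) and Klra1 (2146 against 1764 bases). The additional bases were not compared.

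**Figure D1:**
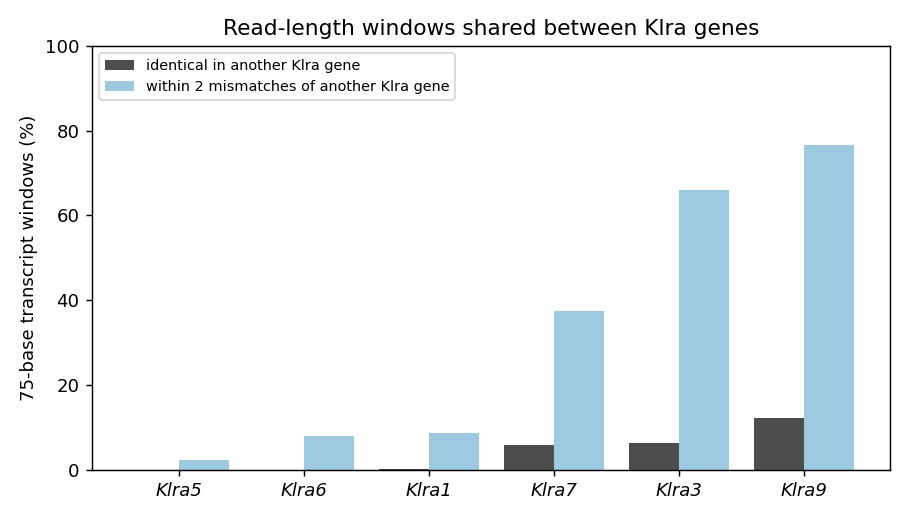
Percentage of 75-base stretches of the GENCODE M21 transcripts of each Ly49 gene (x axis) that occur unchanged (dark bars) or with up to 2 mismatches (light bars) in another Klra gene. Klra5 and Klra6 have no stretch in common with another Klra gene, and Klra9 has the most, 12.1% unchanged and 76.6% with up to 2 mismatches.

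The libraries held 28832779 to 68092478 reads, and levels are given as CPM, that is, reads of a gene relative to all reads of its library. Replicate 3 of each group stood apart from the others: on principal component analysis they were set off along the first axis, which carried 85.1% of the variance, and 4406 (Ctrl) and 4590 (cKO) genes were at 0 reads in replicate 3 against 0 to 5 in the other libraries. Tests were made with limma on log2(CPM + 1) over the 15691 genes whose mean reached 1 CPM, with Benjamini-Hochberg adjustment and a threshold of 0.05. Same-numbered libraries of both groups deviated from their group means together, as did replicates 1 and 2 across numbers, and each call is also given from a fit with the replicate number as a block where the block changed it. Tgfbr2 averaged 449 ± 20.7 CPM over the Ctrl libraries and 274 ± 16.1 CPM over those of cKO (SD, n = 3), 61% of the control level. It passed the limma test (log2 fold change -0.71, limma adjusted p = 0.0207). In the authors' deposited likelihood-ratio results Tgfbr2 had a log2 fold change of -0.645 and an adjusted p of 0.373, and was not marked as changed.

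All 6 members were expressed in every library. In Ctrl the levels per kilobase of exon length, with the length given in the deposited table, were highest for Klra9 (118 ± 89.9 CPM per kilobase), followed by Klra1 (50.6 ± 5.27), Klra5 (46.1 ± 15.3), Klra6 (32.9 ± 6.53), Klra3 (22.6 ± 15.5) and Klra7 (12.8 ± 7.33), each as SD over n = 3. The 3 Ctrl values of each gene overlapped those of its neighbour in this order. Within each Ctrl library, however, Klra3 lay above Klra7 with these lengths (37.7 against 20.6, 6.76 against 6.04 and 23.4 against 11.6 in replicates 1, 2 and 3). The order of the other neighbouring pairs turned between Ctrl libraries. In cKO the order of the per-kilobase levels was Klra9 (104 ± 32.5), Klra1 (49.6 ± 6.97), Klra3 (25.6 ± 6.29), Klra6 (23.5 ± 4.84), Klra7 (15.8 ± 6.33) and Klra5 (14.5 ± 5.28), so Klra5 ranked 3 of 6 in Ctrl and 6 of 6 in cKO. With exon lengths from GENCODE M21, which are shorter than the table's for 5 of the 6 genes, Klra5 came after Klra9 alone in Ctrl (125 ± 41.4 against 214 ± 163 CPM per kilobase) and above Klra1 (61.5 ± 6.41). With these lengths Klra5 was not last in cKO, as it stood at 39.2 ± 14.3, above Klra6 (23.5 ± 4.84). The lengths are 3789 bases in the table and 1398 bases in GENCODE for Klra5, so a level between genes depends on which is used, while a comparison of 1 gene between groups does not.

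Klra5, encoding Ly49E, was lower in cKO than in Ctrl in every library, and passed the test with the replicate block but not without it. In replicates 1, 2 and 3 the Ctrl libraries held 122, 165 and 237 CPM and the cKO libraries 34.7, 54.9 and 74.7 CPM. Every cKO library lay below every Ctrl library, and within each numbered pair the cKO value was 28.5%, 33.3% and 31.6% of its Ctrl value. The Ctrl mean was 175 ± 57.9 CPM and the cKO mean 54.8 ± 20.0 CPM (SD, n = 3), 31.4% of the control level or 3.19-fold lower. The counts behind these values were 4104, 5080 and 12529 reads in Ctrl and 1001, 2309 and 5089 reads in cKO.

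For Klra5 the log2 fold change was -1.67, its standard error 0.33 and its 95% interval -2.45 to -0.88. In the limma fit without a block it did not pass: the unadjusted p was 0.00164 and the Benjamini-Hochberg adjusted p was 0.136. In both groups Klra5 was lowest in replicate 1 and highest in replicate 3, and with the replicate number as a block the standard error was 0.0892, the 95% interval was -1.87 to -1.46 and the limma adjusted p was 4.44e-05. By the other tools, run on the whole reads recovered from the CPM, DESeq2 gave an adjusted p of 0.00038 and edgeR's quasi-likelihood test 0.403 without a block and 8.84e-06 with it. Without replicate 3 of either group the log2 fold change was -1.68 and the limma adjusted p 0.0463 (1.85% of all genes were called in those 4 libraries). The authors' deposited table gives Klra5 a log2 fold change of -1.59 and an adjusted p of 0.000306, and marks it as lower in KO. In bulk libraries, fewer Klra5-expressing cells and less Klra5 RNA per cell cannot be told apart.

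Without a block, limma called 0 of the 6 members, where 0.663% of all 15691 tested genes were called, and 1 of the 6 (Klra5) had an unadjusted p under 0.05, where 6.02% of all genes did. With the block it called 1 of the 6, Klra5, against 2.87% of all genes in either direction and 1.64% called lower. DESeq2 called 1 of the 6 (3.53% of all genes) and edgeR's quasi-likelihood test 0 (0.255%). Klra5 was also the 1 member whose groups did not overlap, where 11.0% of all tested genes did not overlap and 7.10% did so with cKO lower. All 6 members passed the filter on low values, and their median log2 fold change was 0.03 against -0.04 over all tested genes.

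**Figure D2:**
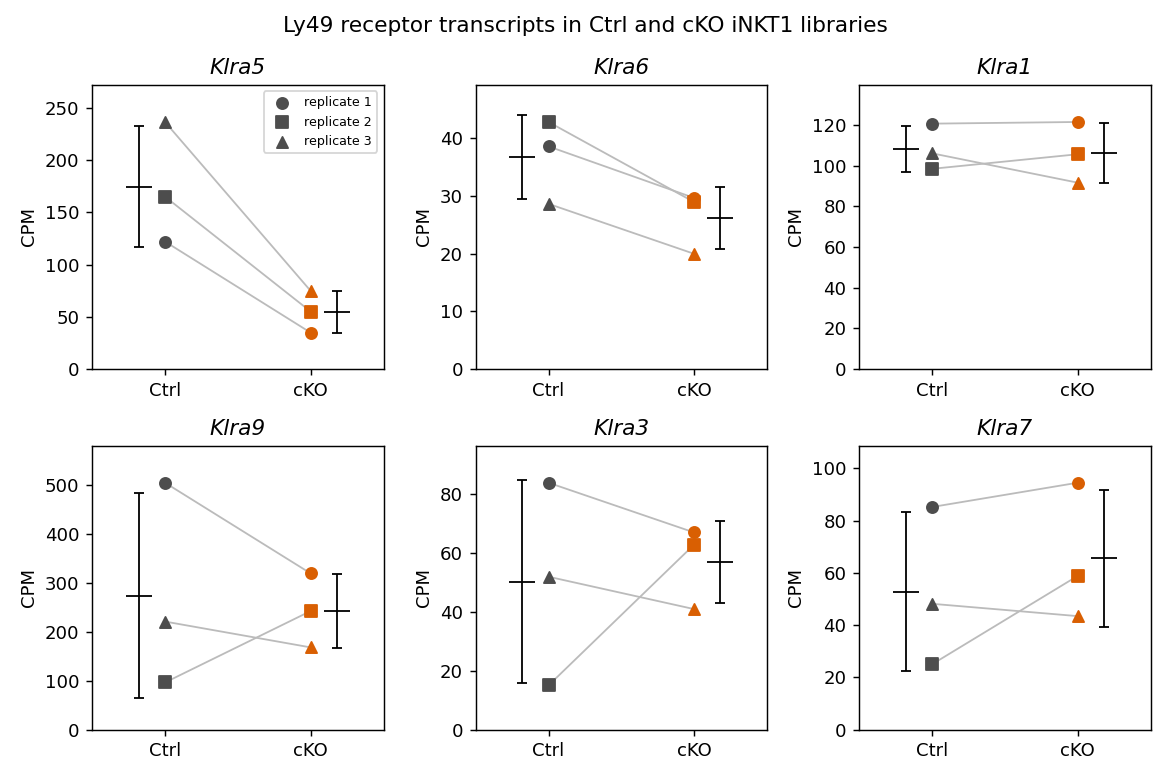
CPM of each Ly49 gene (1 panel each, y axis from 0) in the 3 Ctrl and 3 cKO libraries, with points joined by replicate number and black marks for the group mean ± SD (n = 3). The Klra5 points of cKO (34.7 to 74.7 CPM) all lie below those of Ctrl (122 to 237 CPM), and the other 5 genes overlap between groups.

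Klra6, which encodes Ly49F and was 91.9% identical to Klra5 in its coding sequence, stood at 38.6, 42.8 and 28.6 CPM in Ctrl and 29.7, 28.9 and 20.0 CPM in cKO. Each cKO library was lower than the Ctrl library of the same number, at 76.8%, 67.6% and 69.7% of it, but the groups overlapped, since the highest cKO value lay above Ctrl replicate 3. For Klra6 the log2 fold change was -0.47 (standard error 0.210) and the limma adjusted p was 0.883, or 0.0817 with the block, so Klra6 did not pass in either fit. Klra5 and Klra6 were the 2 of 6 members that were lower in cKO in all 3 numbered pairs, which held for 18.5% of all tested genes. On the difference of logs, Klra5 minus Klra6 went from a mean of 2.19 in Ctrl to 0.99 in cKO, a change of -1.19, and the change was below 0 within each numbered pair (-1.42, -1.02 and -1.15).

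Klra1, encoding Ly49A, studied as a receptor for H2-D class I molecules of some mouse strains, was at nearly one level in both groups. It stood at 121, 98.5 and 106 CPM in Ctrl and at 122, 106 and 91.7 CPM in cKO, so that the ranges covered each other. Its log2 fold change was -0.03 with a 95% interval of -0.35 to 0.28 (limma adjusted p = 1.0, and 0.933 with the block), and the sign turned under other scalings of the libraries (0.03 with TMM). Relative to its mean Klra1 had the narrowest Ctrl spread of the 6, with an SD of 11.3 on a Ctrl mean of 108 CPM. Differences within that 95% interval, in either direction, remained compatible with the Klra1 values in the fit without a block. With the block the 95% interval was -0.25 to 0.18.

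The remaining 3 members, Klra9 (Ly49I), Klra3 (Ly49C) and Klra7 (Ly49G), varied more between Ctrl replicates than between the groups. Klra9 stood at 504, 96.2 and 221 CPM in Ctrl and 319, 242 and 168 CPM in cKO. Klra3, whose product recognises H2-K class I molecules among others, stood at 83.8, 15 and 51.9 CPM in Ctrl and 66.9, 62.8 and 40.9 CPM in cKO. Klra7 stood at 85.2, 25 and 48.2 CPM in Ctrl and 94.5, 58.9 and 43.5 CPM in cKO. In all 3 genes Ctrl replicate 2 was the lowest of the 6 libraries and the groups overlapped.

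The log2 fold changes were 0.09 for Klra9, 0.45 for Klra3 and 0.40 for Klra7, with standard errors of 0.571, 0.582 and 0.464, and limma adjusted p of 1.0 for each (0.961, 0.802 and 0.539 with the block). These directions rest on Ctrl replicate 2. Without that library the log2 fold changes were -0.50 for Klra9, -0.24 for Klra3 and -0.04 for Klra7. With both replicate 2 libraries left out of the blocked fit, Klra9 had a log2 fold change of -0.53 and passed the limma test (adjusted p = 0.0350), with 1 residual degree of freedom a gene before moderation. Klra9 also had a sign below 0 in the authors' deposited table, at -0.11.

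Ctrl replicate 2 was low in these 3 members, at 17.9% (Klra3), 19.1% (Klra9) and 29.4% (Klra7) of Ctrl replicate 1, whereas it stood at 135% of replicate 1 for Klra5, 111% for Klra6 and 81.6% for Klra1. Among the 8753 genes whose mean reached 10 CPM, the log2 gap between Ctrl replicates 1 and 2 had a median of 0.12, and Klra3 (2.40), Klra9 (2.38) and Klra7 (1.73) ranked 5, 6 and 10 from the top. Of the 15 largest gaps, 8 lay in the NK gene complex, which holds 0.286% of those genes: Klri2, Klra13-ps, Klra3, Klra9, Klrc2, Klra7, Klra10 and Klrb1c, of which Klrb1c encodes an NK receptor used as a surface marker. These genes were picked out after their values were seen. Between cKO replicates 2 and 1, the corresponding ratios were 93.9% for Klra3, 75.9% for Klra9 and 62.3% for Klra7. What set Ctrl replicate 2 apart for these genes was not tested.

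**Figure D3:**
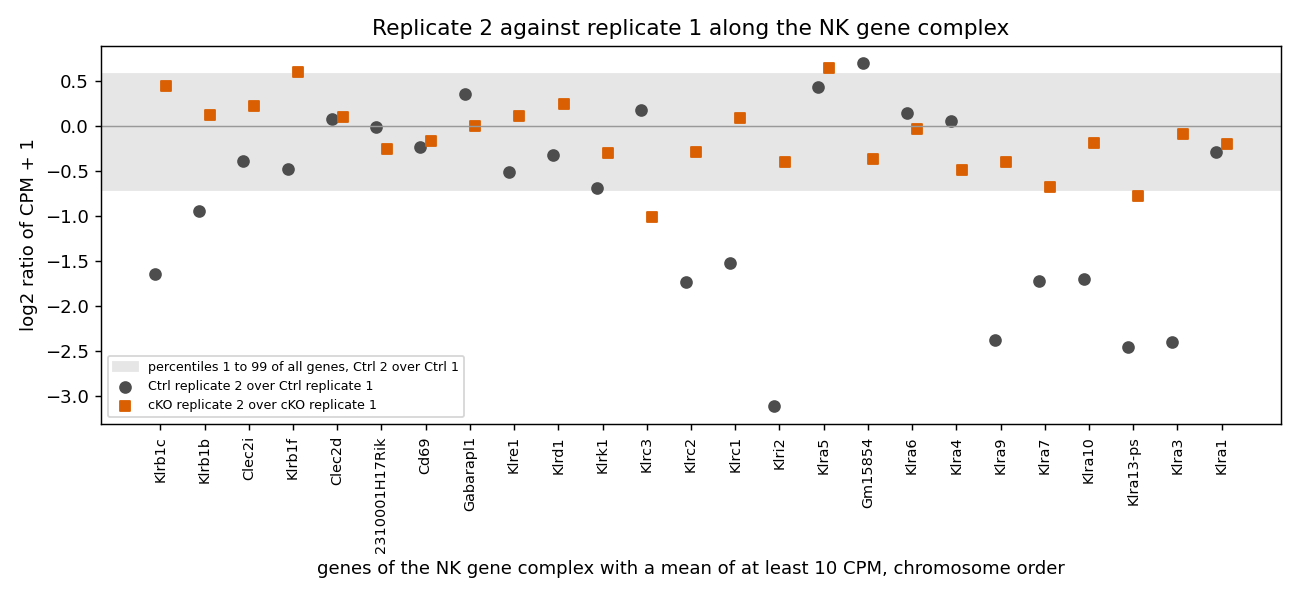
Log2 ratio of CPM + 1 in replicate 2 to replicate 1 (y axis, grey band for percentiles 1 to 99 of all genes in Ctrl) for the genes of the NK gene complex whose mean reached 10 CPM, in chromosome order (x axis), for Ctrl and cKO. In Ctrl, Klra9, Klra7 and Klra3 lie far below 0 (-2.38, -1.73 and -2.40), while Klra5 lies at 0.43 and Klra6 at 0.15.

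Klra3, Klra7 and Klra9 also moved together over the 6 libraries, as a description with shared library totals: the Pearson correlation of their log2 values was 0.94 for Klra3 with Klra9, 0.94 for Klra7 with Klra9 and 0.93 for Klra3 with Klra7. Klra5 correlated with the other 5 members between -0.56 and 0.36. Klra3 and Klra9 are close copies, whereas Klra7 was 81.4% and 81.7% identical to them in coding sequence and shared no 75-base stretch with either. How far reads exchanged between Klra3 and Klra9 enter their correlation was not tested. Summed over Klra3, Klra7 and Klra9, which does not depend on how reads were split among these 3, the level was 673, 136 and 321 CPM in Ctrl and 480, 364 and 252 CPM in cKO. It can still depend on reads shared with Klra genes outside the sum. Of the 155 shared stretches of Klra9, 32 were shared with Klra3, and all 72 of Klra7 were shared with Klra13-ps. The sum overlapped between groups, and its cKO mean was 97.0% of the Ctrl mean.

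Summed over all 6 members the level was 954, 443 and 692 CPM in Ctrl and 666, 553 and 439 CPM in cKO, or 696 ± 256 and 553 ± 114 CPM (SD, n = 3). The cKO mean was 79.4% of the Ctrl mean, and the ranges overlapped. The log2 ratio of the means, -0.33, went to -0.038 without Ctrl replicate 1 and to -0.57 without Ctrl replicate 2. Without Klra5 the sum was 522 ± 283 CPM for Ctrl and 498 ± 134 CPM for cKO, 95.4% of the control level. Klra5 made up 12.8%, 37.3% and 34.2% of the 6-gene sum in Ctrl and 5.21%, 9.93% and 17.0% in cKO, so that the highest cKO share lay above the lowest Ctrl share. Klra9 was the largest part in 4 of the 6 libraries and made up 21.7% to 52.8% of the sum in Ctrl and 38.3% to 47.8% in cKO.

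**Figure D4:**
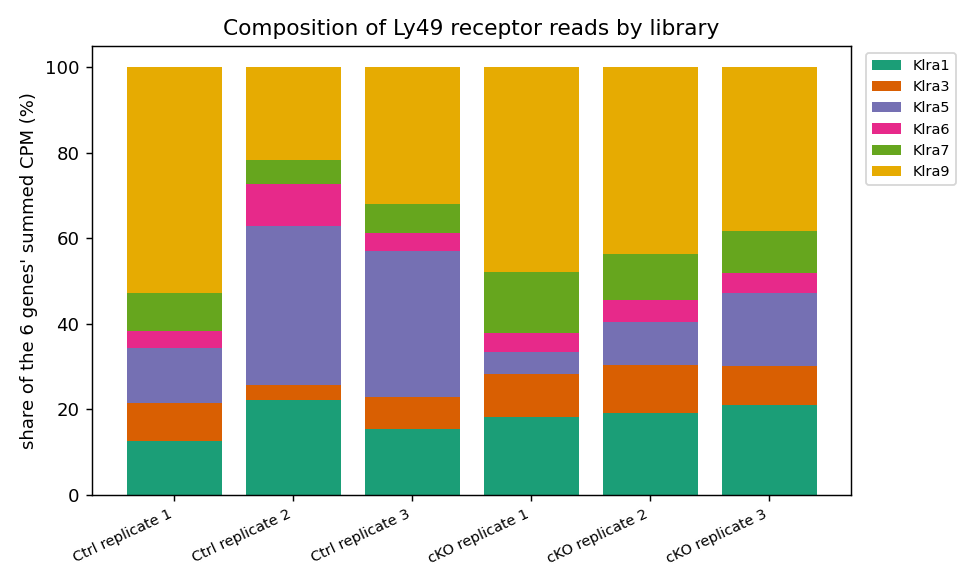
Share of each Ly49 gene in the summed CPM of the 6 genes (y axis, percent) for each library (x axis). Klra5 makes up 12.8% to 37.3% in Ctrl and 5.21% to 17.0% in cKO, and Klra9 makes up 21.7% to 52.8% in Ctrl and 38.3% to 47.8% in cKO.

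Whether Klra5 changed relative to each other member was tested as the log2 difference between both genes in each library. Klra5 was picked with its values known, and all 5 comparisons use the same Klra5 values. They are therefore not independent and add no separate support for the Klra5 difference. The change from Ctrl to cKO was -1.64 against Klra1, -2.11 against Klra3, -1.19 against Klra6, -2.07 against Klra7 and -1.76 against Klra9. Within the numbered pairs the change was below 0 in 3 of 3 for each of the 5 comparisons, from -1.79 to -1.44 for Klra1 and from -1.42 to -1.02 for Klra6. An exact two-sided permutation test that ignores the pairing cannot give a p under 0.1 with 3 libraries against 3, so none of the 5 could pass. The exact test gave p = 0.1 for Klra1, whose groups did not overlap, and 0.2 for each of the other 4, whose groups overlapped across replicate numbers (Benjamini-Hochberg adjusted p = 0.2 for each of the 5).

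The stretches just upstream of the RefSeq start sites are shown for Klra5, which was lower in cKO, and for Klra6, its close copy in coding sequence, to show how much they share. They cover the 250 bases before each start on the minus strand of GRCm38.p6, chr6:129913225-129913474 for Klra5 and chr6:130026955-130027204 for Klra6. The Klra5 start lies inside the span of the gene in the deposited table. Capitals mark a match to CTTTGA, the letters searched for TCF/LEF factors.
Klra5: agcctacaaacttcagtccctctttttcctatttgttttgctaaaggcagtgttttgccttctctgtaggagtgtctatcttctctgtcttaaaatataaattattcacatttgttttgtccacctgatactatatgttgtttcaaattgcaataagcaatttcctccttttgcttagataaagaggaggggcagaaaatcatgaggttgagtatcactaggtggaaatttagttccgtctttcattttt
Klra6: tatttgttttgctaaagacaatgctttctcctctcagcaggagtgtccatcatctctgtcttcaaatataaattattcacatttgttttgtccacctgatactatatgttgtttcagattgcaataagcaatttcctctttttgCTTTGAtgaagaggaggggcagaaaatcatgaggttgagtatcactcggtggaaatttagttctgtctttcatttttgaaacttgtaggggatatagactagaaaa
Over 221 aligned bases the sequences were 92.3% identical. This likeness is not particular to the pair: the Klra6 stretch was 92.0% identical to that of Klra3 (150 aligned bases) and 92.2% to that of Klra9 (167 aligned bases). These letters were searched on both strands: CAGAC for SMAD proteins, which carry TGF-beta signals, TGTGGT for RUNX factors, CTTTGA for TCF/LEF factors and GGTGTG for T-box factors. The Klra5 stretch held none of these, and the Klra6 stretch held 1 CTTTGA, whose first base lies 106 bases before the start. The stretches of Klra3 and Klra9 also held none. Klra1 held 1 TGTGGT, start site 1 of Klra7 held 2 CAGAC and 1 CTTTGA, and start site 2 of Klra7 held 1 CTTTGA. Of 32851 promoter stretches of that length, 42.2% held CAGAC, 14% TGTGGT, 13.8% CTTTGA and 16.3% GGTGTG. A match describes the letters only, and the absence of one says only that these letters are not in this window.

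The table held 7 further Klra rows, and 0 of them passed the limma test with or without the block. Klra4, which encodes the activating receptor Ly49D, stood at 42.7, 44.5 and 14.1 CPM in Ctrl and 37.1, 26.1 and 9.31 CPM in cKO. Like Klra5 and Klra6 it was lower in cKO in all 3 pairs, but the groups overlapped (log2 fold change -0.50, limma adjusted p = 0.154 with the block). Klra8, which encodes the activating receptor Ly49H, stood at 5.58 ± 2.68 CPM (Ctrl) and 4.36 ± 1.71 CPM (cKO), and shared 19.7% of its 75-base stretches with other Klra genes. Klra13-ps, a pseudogene that shares stretches with Klra7, stood at 105, 18.3 and 56.4 CPM in Ctrl and 126, 73.1 and 23.8 CPM in cKO, again with Ctrl replicate 2 the lowest. Klra10 stood at 16.4 ± 11.1 and 14.1 ± 6.36 CPM, Klra17 at 3.38 ± 2.83 and 2.91 ± 2.60 CPM, and Klra14-ps at 1.91 ± 1.62 and 2.62 ± 1.24 CPM (SD, n = 3). Klra11-ps had a mean under 1 CPM and was not tested.

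Within the NK gene complex from Klrb1a to Klra1 (chr6:128609227-130386874), 41 of 42 rows were tested and limma called 0 without the block (0.663% of all tested genes were called) and 7 with it (2.87% of all). Klra5 was 1 of 3 called lower, and 4 were called higher. The other 2 lower genes, picked with their values known, both lie near Klra5: Gm23977, an annotated small nuclear RNA gene 990 bases from it on the opposite strand, and Gm16242, a pseudogene 85059 bases away. Gm23977 stood at 3.69, 5.52 and 4.44 CPM in Ctrl and 0.659, 1.24 and 1.76 CPM in cKO (limma adjusted p = 0.00533 with the block), and Gm16242 at 13.4, 18.6 and 8.50 CPM and 4.92, 4.40 and 2.51 CPM (0.00257). In both genes the groups did not overlap. Whether strand was used in counting was not given, and without it reads from overlapping or adjoining transcripts on either strand cannot be told apart. Klra17, which lies between Gm16242 and Klra5, and Gm15854, the next row after Klra5, overlapped between groups.

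**Figure D5:**
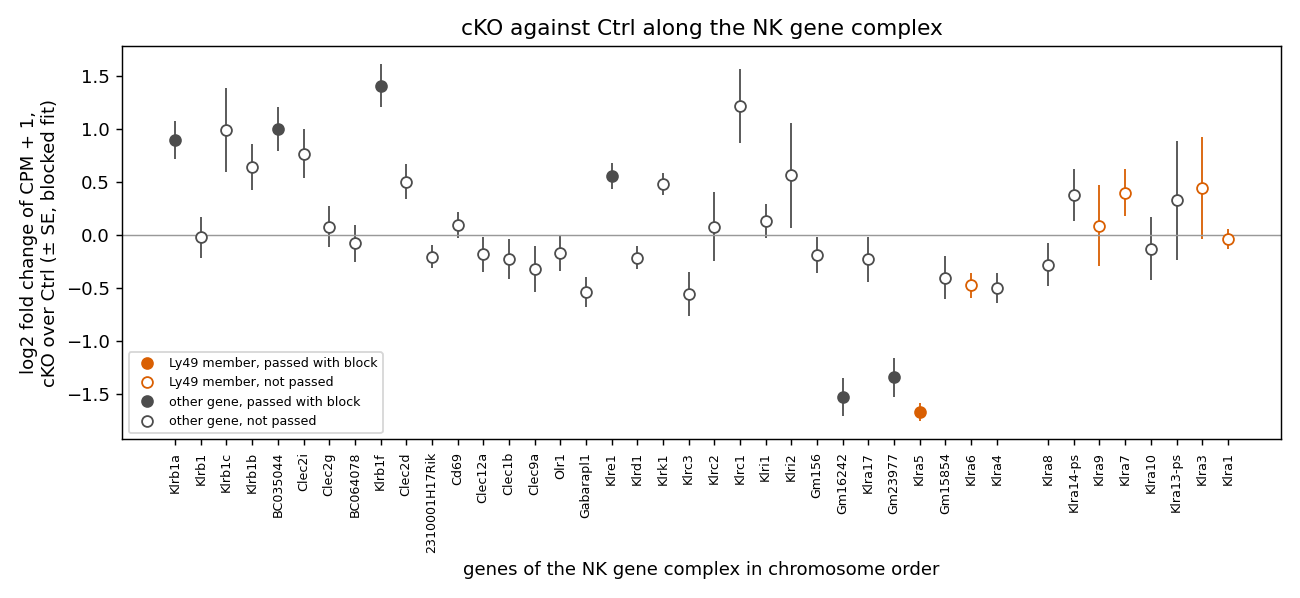
Log2 fold change of CPM + 1, cKO over Ctrl, with its standard error from the blocked limma fit (y axis), for the 41 tested genes of the NK gene complex in chromosome order (x axis), with the 6 Ly49 members in orange and filled points for genes that passed. Klra5 lies at -1.67 and the other 5 members lie between -0.47 and 0.45 with open points.

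Genes that act with the Ly49 receptors were read from lists of ligands, signal relay, regulators and neighbouring lectins. Over all tested genes, limma called 0.663% without the block and 2.87% with it. Among 7 genes of MHC class I and its loading, limma called 0 without the block and 1 with it: H2-K1, a class I heavy chain bound by Ly49C and Ly49I, rose from 4124 ± 278 to 5319 ± 256 CPM (adjusted p = 0.0105 with the block, 0.215 without). H2-D1 stood at 6271 ± 107 and 7350 ± 341 CPM (0.0800 with the block). The median log2 fold change of the 7 was 0.25, against -0.04 over all tested genes.

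Among 11 tested genes of signal relay, limma called 1 without the block (0.663% of all tested genes) and 4 with it (2.87% of all). Tyrobp, which encodes DAP12, the adaptor of the activating Ly49 receptors, rose from 10.5 ± 2.29 to 38 ± 12 CPM (log2 fold change 1.73, adjusted p = 0.0410). With the block, Sh2d1a, encoding the adaptor SAP, rose from 71.1 ± 11.9 to 112 ± 32.4 CPM (adjusted p = 0.0122). Ptpn6, which encodes SHP-1, the phosphatase recruited by inhibitory Ly49 receptors, fell from 1597 ± 110 to 1193 ± 44.6 CPM (adjusted p = 0.0205 with the block, 0.133 without). Fcer1g, an adaptor of other activating receptors, fell from 131 ± 7.97 to 88.0 ± 10.3 CPM (adjusted p = 0.00883 with the block, 0.129 without). The median log2 fold change of the 11 was -0.06.

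Of 13 tested genes known or studied as regulators of Ly49 genes, limma called 1 without the block and 2 with it. Over all tested genes the shares called were 0.663% and 2.87%. The called regulators were higher in cKO. Runx1 rose from 46.0 ± 4.08 to 86.9 ± 5.46 CPM (log2 fold change 0.90, adjusted p = 0.0189). Tcf7, which encodes TCF-1, a factor needed for Ly49A in NK cells, rose from 272 ± 35.3 to 376 ± 12.1 CPM in the blocked fit (adjusted p = 0.0239, and 0.227 without the block), while Klra1 stayed at 108 ± 11.3 and 106 ± 15 CPM. Tbx21, whose promoter drives Cre here, stood at 779 ± 86.1 and 947 ± 131 CPM (adjusted p = 0.0771 with the block). Of 7 genes of the IL-15 axis, which supports Ly49-bearing cells, limma called 1 with the block, against 2.87% of all tested genes. It was Il2rb, which rose from 2925 ± 583 to 3705 ± 721 CPM (limma adjusted p = 0.0166, and 1.0 without the block). The medians were -0.05 for the regulators and -0.0043 for the IL-15 axis.

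Of 16 neighbouring lectins and other genes of the NK receptor group, limma called 0 without the block and 4 with it (2.87% of all tested genes), all higher, and 8 had an unadjusted p under 0.05 without the block (6.02% of all). The 4 were Klrb1a, Klrb1f, Klre1 and Klrg1. Klrb1f went from 13.6 ± 3.15 to 37.7 ± 7.94 CPM (adjusted p = 0.00752 with the block, 0.0616 without) and Klre1 from 137 ± 24.3 to 201 ± 9.31 CPM (0.0494 with the block). Klrb1a went from 4.94 ± 0.704 to 10.3 ± 3.05 CPM and Klrg1 from 1.57 ± 0.25 to 3.77 ± 0.542 CPM (0.0362 and 0.0403 with the block). The median log2 fold change of the 16 was 0.56. Ctrl replicate 2 was the lowest Ctrl library for Klre1 (159, 111 and 141 CPM) and Klrb1f (14.4, 10.1 and 16.2 CPM). It was not the lowest for Klrb1a or Klrg1. Of 21 lectin rows of the NK gene complex at 10 CPM or more, Klra rows included, 16 were lower in Ctrl replicate 2 than in replicate 1. That held for 51.4% of all genes at that level. How far that library enters the median was not tested.

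Cell markers were read beside these values, since Ly49 genes are also expressed by NK cells. The defining iNKT1 genes were present in both groups: Cd3e stood at 1387 ± 93.0 and 1213 ± 126 CPM, Zbtb16 at 49.8 ± 9.19 and 49.9 ± 9.74 CPM, and Klrb1c at 483 ± 271 and 844 ± 192 CPM in Ctrl and cKO. Of the 10 genes of that list, Xcl1, a chemokine gene, fell from 181 ± 26.6 to 91.5 ± 6.51 CPM (limma adjusted p = 0.0281, and 0.00147 with the block), and Ccl5, another chemokine gene, rose with the block from 167 ± 25.5 to 372 ± 75.9 CPM (0.00078, and 0.0631 without). All 8 genes of the NK list were in the table, and their summed level was 229 to 275 CPM in Ctrl and 331 to 352 CPM in cKO, without overlap. Its genes did not move as a set. Klra4 and Klra8, which are in the list, had lower means in cKO (24.2 and 4.36 CPM) than in Ctrl (33.7 and 5.58 CPM). With the block 2 of the 7 tested genes of the list passed (2.87% of all tested genes did), both higher. They were Klre1, at 137 ± 24.3 and 201 ± 9.31 CPM, and Irf8, at 52.9 ± 14.6 and 85.5 ± 17.9 CPM (limma adjusted p = 0.00498 for Irf8). The defining NK genes Ncr1 (1.42 ± 0.591 and 1.56 ± 0.854 CPM) and Eomes (0.773 ± 0.420 and 0.747 ± 0.674 CPM) were low in both groups. The markers found for B cells (2 of 4), myeloid cells (3 of 5), double-positive thymocytes (3 of 5) and iNKT17 cells (2 of 5) summed to at most 12.1 CPM in any library. The iNKT2 list (4 of 4) summed to 238 to 282 CPM in Ctrl and 210 to 271 CPM in cKO, and the gamma-delta T cell list (2 of 3) to 12.1 to 51.8 and 24.4 to 50.3 CPM. Tested were 2 B cell, 2 myeloid, 3 double-positive thymocyte, 1 iNKT17, 4 iNKT2 and 2 gamma-delta T cell genes. Within these lists limma called 3 genes with the block (2.87% of all tested genes) and 0 without it (0.663% of all). Il4 fell from 35.5 ± 10 to 18.6 ± 3.65 CPM (limma adjusted p = 0.00806 with the block). Ccr4 rose from 10.7 ± 3.48 to 23.8 ± 10.5 CPM (0.0115) and Cd163l1 rose from 14.4 ± 6.12 to 26.1 ± 4.32 CPM (0.0272). The part of other cells in the Klra5 difference was not tested.

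The genes whose pattern over the 6 libraries was most like that of the 6-gene sum were Marveld1, Mta1, Mprip, Camk1 and Fam213b. Likeness was the root mean square difference of log2(CPM + 1) centred on each gene's own mean, 0.07 for Marveld1, 0.11 for Mta1, 0.12 for Mprip and 0.13 for Camk1 and Fam213b. Marveld1 stood at 70.3, 30.3 and 43.7 CPM in Ctrl and 42.4, 37.2 and 28.1 CPM in cKO. Like the 6-gene sum, it had its highest Ctrl value in replicate 1 and its lowest in replicate 2.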

How the data were processed

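Messenger RNA was measured in 3 Ctrl and 3 cKO libraries. Per the submitters' processing notes the tools were Trimmomatic 0.33, STAR 2.5.2, HTSeq 0.6.1 and edgeR, with build mm10; their parameters, the strand setting and the handling of multiply aligned reads were not given in the sources used here. The authors deposited CPM per library, and, per the file headers, their own log2 fold change with its p-value (raw and adjusted) and likelihood-ratio score for each gene. The columns name WT and KO, taken as Ctrl and cKO.

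limma 3.58.1 (R 4.3.3, trend and robust) was run on log2(CPM + 1), with group as the only term, over the 15691 genes whose mean reached 1 CPM, adjusted by Benjamini-Hochberg; fold changes understate those of low genes. All CPM values were whole multiples of 1 read within 0.001 (100% in each library), so edgeR 4.0.16 and DESeq2 1.42.0 were run on recovered reads as alternatives; edgeR's quasi-likelihood test called 40 genes. 3 reads equal 0.0441 to 0.104 CPM; depth and floors cover counting error only, as reads carry no molecular identifiers. None of the 6 within-group library pairs agreed within sampling noise (pairs across groups were not compared), and p-values measure the spread between these libraries, which may be technical. Deviations of same-numbered libraries correlated at 0.855, 0.687 and 0.924; no label states a pairing. Differently numbered replicates 1 and 2 also correlated (Ctrl 2 with cKO 1 at 0.718, Ctrl 1 with cKO 2 at 0.578), so the values set replicate 3 apart more than they pair replicates 1 and 2. The blocked fit is given too, and its calls rest on the pairing. The fits were tested on simulated data that held no replicate effect. That test therefore cannot bear on the choice between the blocked and unblocked fits.

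The members, lists and tests were chosen with earlier results of these data known. Named are the members, the other Klra rows, up to 6 genes a list past the threshold in either fit, the defining markers and the 5 most similar genes. Sequences are from RefSeq (GRCm38.p6; start sites for all 6 members) and GENCODE M21.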

Additional observations from a re-analysis of the deposited data

How the results depend on the processing

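Over all genes, 104 were called without the block. The count was 40 with edgeR's quasi-likelihood test, 554 with DESeq2, 451 with the replicate block, 469 with edgeR and the block, 514 with TMM scaling and the block, 291 in replicates 1 and 2 alone, 26 at a threshold of 0.01 and 14 to 85 with 1 library left out. Of the Ly49 members, 1 was called with DESeq2, with the replicate block, with edgeR and the block, with TMM and the block, and in replicates 1 and 2 alone, each time Klra5. After the data were seen, the blocked fit was repeated without each replicate number: it called 388, 387 and 943 genes without replicate 1, 2 and 3 and 1 to 2 members, Klra5 each time, with Klra9 when replicate 2 was left out and Klra6 when replicate 3 was left out (limma adjusted p = 0.0179). These fits have few degrees of freedom.

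The log2 fold change of Klra5 kept its direction in every setting run: -1.61 with DESeq2, -1.67 with the block, -1.64 with edgeR and the block, -1.60 with TMM and the block, -1.68 in replicates 1 and 2 alone, -1.72 to -1.61 in the block without a replicate and -1.92 to -1.38 with 1 library left out. The direction of Klra1 reversed to 0.031 with TMM (with or without the block), 0.0099 with upper quartile scaling (added after seeing the data), 0.020 with DESeq2-type size factors, 0.0096 with edgeR, 0.015 with DESeq2, 0.010 with edgeR and the block, 0.055 in replicates 1 and 2 (with or without the block) and ranged from -0.13 to 0.068 with 1 library left out. Klra9 reversed to -0.14 with edgeR and -0.13 with DESeq2, ranged from -0.50 to 0.68 with 1 library left out and was -0.53 in the block without replicate 2. Klra3 ranged from -0.24 to 0.96 and was -0.33 in the block without replicate 2, and Klra7 ranged from -0.040 to 0.82. The cause of these turns was not tested beyond the libraries named. The members had at least 462 reads in every library.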
